A study of Homo sapiens with 16 samples.

Results

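The mammary lineage transcription factors described here are *TP63*, *SNAI2*, *SOX9*, *KLF4*, *KLF5*, *GRHL2*, *ELF3*, *EHF*, *GATA3* and *TFAP2A*. They were chosen by name, as regulators of basal, progenitor and luminal identity, and make up 10 of the 26475 genes in the count table. All 10 were listed. RNA-seq was performed on 16 libraries of MCF10A, a spontaneously immortalized and non-tumorigenic human breast epithelial cell line, in 4 groups of 4. Control cells received DMSO and 2 medium changes without collagen. Cells of the second group received DMSO, and after 24 h medium with collagen I at 0.05 mg/mL. The remaining groups received the same collagen with an inhibitor from the start, for 48 h in all. DDR1i is DDR1-IN-1 at 2 μM, which inhibits the kinase activity of the collagen receptor DDR1, and RUNXi is AI-10-104 at 5 μM, which blocks the binding of RUNX proteins to their partner CBFβ. The comparisons ask whether collagen, or either inhibitor in its presence, moved the RNA of these factors. All groups are a single cell line grown on plates, and the labels do not say that replicates were separate cultures, so that p-values measure only the spread between these libraries, which may be technical.

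The breast epithelium has an outer layer of basal myoepithelial cells and an inner layer of luminal cells, and the identity of each is held by a small number of transcription factors. TP63, a relative of p53, is required for stratified and basal epithelia, and SNAI2 (Slug) represses epithelial junction genes such as *CDH1* and marks basal and stem-like cells. SOX9 is found in progenitors. GATA3 and TFAP2A act in luminal differentiation, GRHL2, ELF3 and EHF maintain epithelial junctions and surfaces, and KLF4 and KLF5 control the balance of proliferation and differentiation in epithelia.

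Total counts were 12184619 to 44332378 per library, with 12074 to 17133 genes detected. Both extremes were in the control group, where replicates 2 and 3 had the fewest genes detected of all libraries (12074 and 12480). Collagen replicate 3 stood apart in the principal component analysis of the study, which dropped it, and here it entered no test and is shown as a value. With it left out, edgeR's quasi-likelihood test at an adjusted p under 0.05 called 0 of 13092 genes for collagen against control (1754 at an unadjusted p under 0.05, and 414 by DESeq2 after adjustment). It called 334 of 13548 genes for DDR1i against collagen and 549 for RUNXi against collagen, of which 229 and 351 were higher, and 77 for DDR1i against RUNXi. With a trend in transcript length removed the higher genes were 35 of 162 and 79 of 203. With collagen replicate 3 included, 9 and 60 genes were called for the inhibitors. DDR1i and RUNXi were compared with the same collagen libraries.

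The libraries expressed some markers of both layers, and neither list was expressed as a whole. *KRT5*, the basal keratin, had 6971 to 11592 CPM, that is, counts scaled to a common library size with TMM normalization. Of the 16 basal markers *CNN1*, which encodes the smooth muscle protein calponin, was at 0 in all libraries. The basal markers *MYLK* and *OXTR* reached at most 2.74 and 2.3 CPM, and *ACTA2* at most 12.8 CPM. Of the 16 luminal markers *KRT7* was abundant (1690 to 3255 CPM), *KRT19* reached at most 3.65 CPM and *CLDN3* was at 0. Low maxima were also found for *CLDN4* (3.6 CPM), *WFDC2* (1.42 CPM) and *AZGP1* (1.15 CPM). Those of *PROM1*, *LTF* and *KIT* were 0.212, 0.0867 and 0.0221 CPM. The luminal markers *KRT18* (332 to 576 CPM), *SLPI* (104 to 346 CPM) and *KRT8* (57.2 to 169 CPM) were expressed. The summed levels of the 8 fibroblast markers were 5.42 to 32.9 CPM, largely from *DCN*, and those of the 6 endothelial markers 0 to 3.98 CPM. The 6 immune markers summed to 9.40 to 43.95 CPM, from *CD68* and *CD14*, with *PTPRC* at most 0.0289 CPM, and the 5 adipocyte markers to at most 2.12 CPM. In bulk libraries, fewer cells of a type and less RNA per cell cannot be told apart.

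None of the lineage factors passed the test in any comparison. Of the 10, 9 passed the filter on low counts and were tested in each comparison, and *GRHL2*, listed at 0, was not. The number called was 0 for collagen against control, where 0% of all tested genes were called. It was also 0 for DDR1i against collagen (2.47% of all tested genes), RUNXi against collagen (4.05%) and DDR1i against RUNXi (0.568%). At an unadjusted p under 0.05 there were 0, 2, 1 and 2 factors, beside 13.4%, 18%, 21.1% and 6.19% of all genes, and DESeq2 had 0, 2, 1 and 3 unadjusted. DESeq2 gave an adjusted p to 4, 5, 7 and 9 of the factors, leaving out those with low counts, and called 0 of them. The median log2 fold change of the factors was 0.01 for collagen, −0.02 for DDR1i, −0.12 for RUNXi and 0.09 for DDR1i against RUNXi, beside 0.01, 0.00, 0.01 and 0.01 over all genes.

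Per kilobase of transcript, the factors covered a wide range of levels. *KLF5* was highest, with a mean of 61.8 ± 10.8 CPM per kb (SD, n = 16 libraries), above 92.5% of the 17165 genes with counts and a known length. *SNAI2* followed with 45.0 ± 5.67, *TFAP2A* with 25.3 ± 3.195 and *TP63* with 11.8 ± 1.81 CPM per kb. *KLF4* (4.72 ± 1.62), *GATA3* (4.43 ± 0.917) and *SOX9* (2.95 ± 1.02 CPM per kb) lay near the middle of all genes. *EHF* (0.824 ± 0.892) and *ELF3* (0.239 ± 0.259 CPM per kb) were low and varied by as much as their mean. Ranges of *KLF4*, *GATA3* and *SOX9* over the libraries overlapped, so that their order was not resolved.

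**Figure D1:**
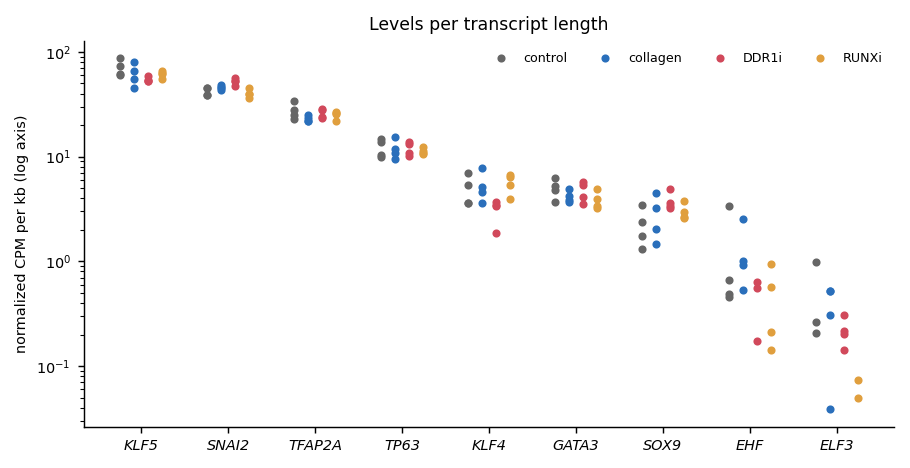
Normalized CPM per kilobase of transcript (log axis) of the 9 factors with counts, with 1 point per library and 1 colour per group (control, collagen, DDR1i with collagen, RUNXi with collagen). *KLF5* and *SNAI2* lie highest in every group, and *EHF* and *ELF3* lowest and most spread. Collagen replicate 3 is included, and libraries at 0 (1 for *EHF*, 3 for *ELF3*) cannot be drawn on a log axis.

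*TP63*, the basal master regulator, overlapped in all 4 groups. On GRCh37 it lies at chr3:189349178-189615065 on the plus strand. Its CPM was 72.5, 51.0, 48.5 and 68.5 in control replicates 1 to 4, 75.5, 57.9 and 47.3 in collagen replicates 1, 2 and 4, and 53.2 in collagen replicate 3. With DDR1i it was 53.5, 50.2, 68.1 and 65.6, and with RUNXi 60.6, 55.7, 52.5 and 54.0 CPM. The spread within the control and collagen groups exceeded the differences between group means, which ran from 55.7 to 60.2 CPM. The log2 fold change was 0.01 for collagen against control (95% interval −0.41 to 0.43), −0.02 for DDR1i (−0.35 to 0.30) and −0.12 for RUNXi against collagen (−0.44 to 0.21), with adjusted p of 0.996, 0.971 and 0.739. These intervals reach at most 0.44 either way, which does not show equality. Gene counts do not separate the TA and ΔN isoforms of *TP63*.

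*SNAI2* was highest with DDR1i and lowest with RUNXi. It lies at chr8:49830157-49834299 on the minus strand. Its CPM was 114, 115, 124 and 102 with DDR1i, and 98.4, 86.6, 85.9 and 78.7 with RUNXi, so that the groups did not overlap. Collagen alone had a mean between them and overlapped with both (99.9, 94.7 and 105, with 98.0 in replicate 3), and control libraries had 85.1, 98.7, 83.8 and 99.5 CPM. For DDR1i against RUNXi the log2 fold change was 0.38 ± 0.11 (SE, 95% interval 0.15 to 0.62), with an unadjusted p of 0.00236 that did not pass adjustment (adjusted p = 0.200, range over the alternatives 0.0649 to 0.562). Against collagen it was 0.19 for DDR1i (adjusted p = 0.462) and −0.20 for RUNXi (0.373).

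*KLF4*, a zinc finger factor of epithelial differentiation at chr9:110247133-110252763 (minus strand), was lowest with DDR1i. Its CPM was 9.92, 10.2, 5.43 and 10.9 with DDR1i, against 23.1, 10.6 and 15.1 with collagen alone (13.5 in replicate 3), 18.7, 11.7, 19.5 and 15.8 with RUNXi, and 20.5, 10.5, 15.6 and 10.6 in the control group. The DDR1i libraries lay below every RUNXi library and overlapped with collagen only through collagen replicate 2. The log2 fold change for DDR1i was −0.83 ± 0.28 against collagen (95% interval −1.40 to −0.26, unadjusted p = 0.00582, adjusted p = 0.0994) and −0.84 ± 0.26 against RUNXi (−1.38 to −0.31, unadjusted p = 0.00329, adjusted p = 0.242). RUNXi against collagen gave 0.01 (−0.56 to 0.58, adjusted p = 0.991). The DDR1i comparison passed without a filter on low counts (adjusted p = 0.0355) and without collagen replicate 2 (log2 fold change −1.08, adjusted p = 0.044). The adjusted p over all alternatives, among them DDR1i against control, was 0.0355 to 0.933.

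*SOX9*, at chr17:70117161-70122557 on the plus strand, was highest with DDR1i. Its CPM was 12.6, 14.1, 19.4 and 13.4 with DDR1i and 10.1, 10.4, 11.5 and 14.7 with RUNXi, against 12.6, 8.04 and 5.81 with collagen alone and 13.5, 5.19, 6.91 and 9.37 in the control group. All DDR1i libraries lay above the 3 collagen libraries in the test, with collagen replicate 1 and DDR1i replicate 1 equal to 3 digits. Collagen replicate 3 had 17.6 CPM, above 3 of the 4 DDR1i libraries. The log2 fold change of DDR1i against collagen was 0.76 ± 0.27 (95% interval 0.20 to 1.31, unadjusted p = 0.00965, adjusted p = 0.126), and it was 0.43 with replicate 3 included. It passed without collagen replicate 1 (1.09, adjusted p = 0.0417). The adjusted p over all alternatives, among them DDR1i against control, was 0.0417 to 0.796. RUNXi against collagen gave 0.40 (adjusted p = 0.418) and DDR1i against RUNXi 0.35 (adjusted p = 0.993).

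**Figure D2:**
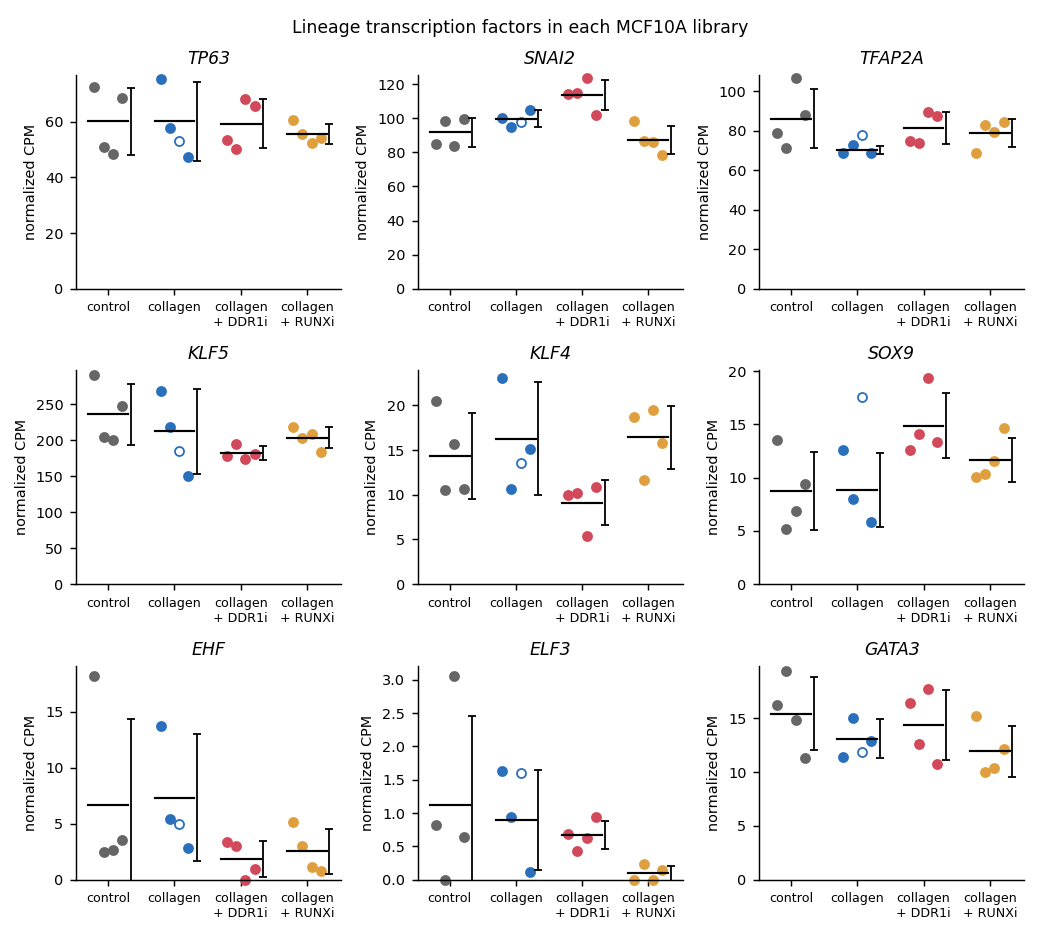
Normalized CPM of 9 lineage factors in each library (linear axes from 0), with points for replicates 1 to 4 from left to right, black lines for the group mean and bars of 1 SD. The open point is collagen replicate 3, left out of the mean and the tests, and SD bars that would pass below 0 are cut there. *TP63* overlaps in all groups, *KLF4* is lowest and *SOX9* highest with DDR1i, and *SNAI2* separates DDR1i (102 to 124 CPM) from RUNXi (78.7 to 98.4 CPM).

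*KLF5*, which promotes epithelial proliferation, lies at chr13:73629114-73651679 (plus strand). It was 291, 205, 201 and 247 CPM in the control group, 269, 219 and 150 with collagen (185 in replicate 3), 178, 196, 175 and 182 with DDR1i and 219, 204, 209 and 184 with RUNXi. The collagen libraries alone covered the range of all inhibitor libraries. DDR1i against collagen gave a log2 fold change of −0.22 (adjusted p = 0.444) and RUNXi −0.07 (0.852).

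*TFAP2A* (AP-2α), at chr6:10393419-10419892 on the minus strand, had 79.0, 71.5, 107 and 87.8 CPM in the control group and 69.0, 72.7 and 69.0 with collagen. With DDR1i it had 74.9, 73.6, 89.3 and 87.7 CPM, all above the collagen libraries in the test, although collagen replicate 3 (77.7 CPM) lay among them. With RUNXi it had 68.6, 82.7, 79.5 and 84.5 CPM. The log2 fold change was −0.29 ± 0.16 for collagen against control (unadjusted p = 0.0920, adjusted p = 0.466) and 0.21 for DDR1i against collagen (adjusted p = 0.425), and both missed the threshold. The opposite-strand gene *TFAP2A-AS1* had 220 counts over all libraries beside 29992 for *TFAP2A*, and the use of strand in counting is not given in the sources used here.

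*GATA3*, the luminal zinc finger factor at chr10:8087341-8117161 (plus strand), had 11.3 to 19.4 CPM in the control group, 11.4 to 14.99 with collagen, 10.8 to 17.8 with DDR1i and 10.0 to 15.2 with RUNXi. All groups overlapped. Log2 fold changes were −0.23 for collagen against control, 0.13 for DDR1i and −0.14 for RUNXi against collagen, with adjusted p of 0.806, 0.848 and 0.806. A 95% interval of −0.36 to 0.63 for DDR1i leaves a moderate difference possible.

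Some pairs of groups did not overlap. They were *SOX9* and *TFAP2A* higher for DDR1i against collagen (2 of 9, beside 8.44% of all genes, with 0 lower beside 6.71%), and *SNAI2* and *ELF3* higher with *KLF4* lower for DDR1i against RUNXi (2 and 1 of 9, beside 2.27% and 2.23%, or 4.5% in all). No factor was apart for collagen against control or RUNXi against collagen, where 13.6% (6.45% higher and 7.17% lower) and 18.3% (9.46% and 8.79%) of all genes were. When the groups were put in order of their mean, 26 of 27 neighbouring pairs of groups overlapped, the exception being *ELF3* between DDR1i and RUNXi.

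**Figure D3:**
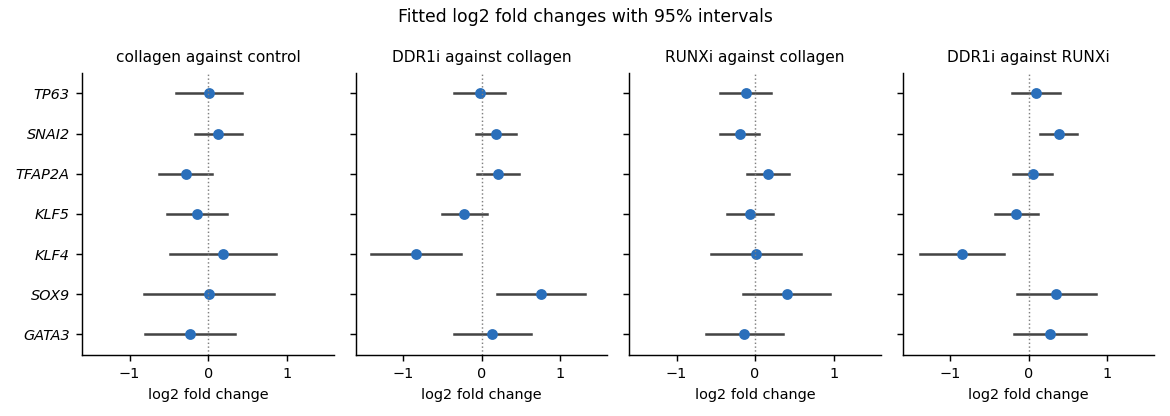
Log2 fold change (points) with its 95% interval (lines) from the quasi-likelihood fit for 7 factors in 4 comparisons. Intervals that leave out 0 are those of *KLF4* and *SOX9* for DDR1i against collagen and of *SNAI2* and *KLF4* for DDR1i against RUNXi, and none of these passed adjustment over all genes. *EHF* and *ELF3* are not drawn because of their low counts.

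The ETS factors *EHF* and *ELF3* were low and uneven. *EHF*, at chr11:34642640-34684835 (plus strand), had 18.2, 2.48, 2.62 and 3.56 CPM in the control group, 13.7, 5.40 and 2.85 with collagen (5.00 in replicate 3), 3.39, 3.02, 0 and 0.946 with DDR1i and 5.13, 3.05, 1.15 and 0.764 with RUNXi. Replicate 1 was highest in every group. A count of 0 of 22432500 in DDR1i replicate 3 allows up to 0.134 CPM. Of 978 genes with a median count within 1.5 times that of *EHF* (70), 31.2% had at least 1 library at 0. The log2 fold change was −1.97 ± 1.01 for DDR1i (unadjusted p = 0.0733, adjusted p = 0.335) and −1.53 ± 0.99 for RUNXi against collagen (adjusted p = 0.422). Without a filter on low counts the DDR1i comparison passed (adjusted p = 0.0104). The adjusted p over all alternatives, among them DDR1i against control, was 0.0104 to 0.998.

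*ELF3*, at chr1:201977073-201986311 (plus strand), had counts of 0, 5, 0 and 4 with RUNXi, 16, 10, 14 and 15 with DDR1i, 29, 25 and 3 with collagen (44 in replicate 3) and 37, 0, 49 and 22 in the control group. The RUNXi group had the lowest mean, but collagen replicate 4 (0.120 CPM) and control replicate 2 (0) lay within its range of 0 to 0.231 CPM. A count of 0 allows up to 0.125 and 0.193 CPM in RUNXi replicates 1 and 3 and up to 0.246 CPM in control replicate 2. Of 854 genes with a median count within 1.5 times that of *ELF3* (14.5), 96.5% had at least 1 library at 0. The log2 fold change for RUNXi against collagen was −3.11 ± 1.45 (95% interval −6.09 to −0.13, unadjusted p = 0.0412, adjusted p = 0.215). DDR1i against RUNXi gave 2.70 (−0.15 to 5.54, adjusted p = 0.832).

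RUNX proteins bind DNA through a short core sequence. The letters TGTGGT and TGCGGT, on either strand, were searched in the 250 bases before each annotated RefSeq start (GRCh38.p14). They were found in 5 of 15 windows of 7 factors, beside 16.3% of all 35116 windows. Of the 5, 3 were among the 6 windows of *GATA3*, and 1 each was in *EHF* and *KLF5*, which had 2 windows each. Windows of *SOX9* were not in the table, and those of *SNAI2* and *GRHL2* were not used here, so that the share does not cover these factors. The *TP63* window searched (chr3:189631139-189631388) had 0 matches, and starts of its TA and ΔN isoforms were not searched separately. The windows below are shown for the first start of *EHF*, which holds a match, and for *KLF4*, which holds none. The window of *ELF3*, which had the largest fitted difference of the factors with RUNXi (−3.11, not called), had 0 matches. A link between matches and fold changes was not tested. Capitals mark the match, which begins at position −187 from the start of *EHF* at chr11:34624007-34624256 (plus strand). The *KLF4* window is chr9:107489770-107490019 (minus strand). A match is a description of letters and not a bound site.
EHF: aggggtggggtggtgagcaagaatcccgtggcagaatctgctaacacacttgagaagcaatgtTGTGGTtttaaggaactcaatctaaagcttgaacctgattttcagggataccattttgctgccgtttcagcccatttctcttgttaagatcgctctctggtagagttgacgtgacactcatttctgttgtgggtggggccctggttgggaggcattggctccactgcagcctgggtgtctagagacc
KLF4: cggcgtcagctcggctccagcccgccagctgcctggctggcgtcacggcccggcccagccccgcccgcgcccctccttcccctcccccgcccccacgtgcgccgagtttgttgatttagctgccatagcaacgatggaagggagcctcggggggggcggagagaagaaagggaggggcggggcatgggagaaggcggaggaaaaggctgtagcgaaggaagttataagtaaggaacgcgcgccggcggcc

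*GRHL2*, the grainyhead factor at chr8:102504667-102681954 (plus strand), was listed at 0 in 16 of 16 libraries. A total of 0 among 378091262 counts would allow up to 0.00793 CPM. However, *EIF4A1* and *EIF3C*, which encode translation factors that every cell uses, were also listed at 0 in all libraries, so that only the listed value is given. *ESRP1* and *CDH1*, epithelial genes that GRHL2 is known to activate, had 33.2 to 69.9 and 61.6 to 117 CPM. Its relatives *GRHL1* and *GRHL3* had 0 to 2.53 and 2.45 to 10.7 CPM.

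Other factors of these families and lineages were mostly not called. The lists here and below were written with earlier results of these data known, so that the shares of all genes beside them are a description. Of 25 family relatives 19 were tested, and 2 rose with DDR1i against collagen (beside 1.69% of all genes). These were *KLF10*, a TGF-β-inducible repressor (42.9 ± 14.2 to 68.5 ± 5.75 CPM, log2 fold change 0.68 ± 0.17, adjusted p = 0.0343), and *KLF7* (33.5 ± 8.90 to 55.7 ± 9.87 CPM, 0.73 ± 0.19, adjusted p = 0.0350). Neither remained called with collagen replicate 3 included (adjusted p = 0.379 and 0.530) or without any of collagen replicates 2 and 4 and DDR1i replicates 3 and 4, and *KLF10* was also lost without DDR1i replicate 2 (0.0745 to 0.169 over both genes). With the length trend removed both were also lost (0.0640 and 0.237). No relative was called with RUNXi or between the inhibitors. Of 20 other luminal and alveolar factors 16 were tested, and 2 fell with each inhibitor (beside 0.775% of all genes for DDR1i and 1.46% for RUNXi). *XBP1*, a secretory cell regulator, fell from 144.5 ± 26.4 CPM to 94.2 ± 10.4 with DDR1i (−0.62 ± 0.14, adjusted p = 0.0166) and 99.96 ± 9.38 with RUNXi (−0.54 ± 0.14, adjusted p = 0.0290). *CEBPD*, a C/EBP factor, fell from 82.7 ± 11.2 CPM to 47.7 ± 12.3 (−0.79 ± 0.18, adjusted p = 0.0172) and 48.1 ± 9.73 (−0.79 ± 0.18, adjusted p = 0.0178). Control libraries had 94.9 ± 31.7 CPM of *XBP1* and 67.9 ± 12.2 of *CEBPD*, and with the control as reference *XBP1* with RUNXi had a log2 fold change of 0.07. With collagen replicate 3 included, adjusted p of these 4 calls was 0.151 to 0.500. *XBP1* was lost without collagen replicate 4 with either inhibitor, without DDR1i replicate 3 and without RUNXi replicates 2, 3 or 4 (0.0624 to 0.157). *CEBPD* was lost without collagen replicate 1 or DDR1i replicates 2, 3 or 4 for DDR1i (0.0548 to 0.0865) and without RUNXi replicate 4 for RUNXi (0.0539). With the length trend removed *XBP1* with DDR1i remained (0.0491), and the other 3 calls did not (0.0619 to 0.164). Of 20 other basal and progenitor factors, 13 were tested against the inhibitors and 0 were called (beside 2.47% of all genes for DDR1i and 4.05% for RUNXi). At an unadjusted p under 0.05 there were 4 of 13 with DDR1i and 3 of 13 with RUNXi, beside 18% and 21.1% of all genes.

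Targets of TP63 moved in both directions, although *TP63* itself was not called. The list was not split by whether TP63 activates or represses a gene, so that its counts and median do not measure TP63 activity. Of 26 targets 24 were tested with the inhibitors, with a median log2 fold change of 0.06 for DDR1i and 0.20 for RUNXi. With DDR1i 2 rose and 3 fell (2 of 24 beside 1.69% and 3 of 24 beside 0.775% of all genes), and with RUNXi 2 rose and 1 fell (beside 2.59% and 1.46%). *KRT14*, the basal keratin, fell from 3825 ± 808 CPM with collagen to 2059 ± 311 with DDR1i (−0.90 ± 0.13, adjusted p = 0.00123) and was 4034 ± 304 with RUNXi, a difference between inhibitors of −0.97 ± 0.12 (adjusted p = 6.76e-05). Both calls remained with collagen replicate 3 included and without any 1 library. The hemidesmosome integrins *ITGB4* and *ITGA6* rose with RUNXi (0.66 ± 0.13 and 0.59 ± 0.12, adjusted p = 0.0107 and 0.0106) and with DDR1i (0.58 ± 0.13 and 0.44 ± 0.12, adjusted p = 0.0226 and 0.0471). Control libraries had 866 ± 121 CPM of *ITGB4* and 757 ± 224 of *ITGA6*, above the means with collagen (685 ± 35.2 and 609 ± 18.9). The RUNXi calls held without each library, but with the length trend removed *ITGB4* was lost (0.47, adjusted p = 0.0792) and *ITGA6* remained (0.40, adjusted p = 0.0476). With DDR1i *ITGB4* lost the call without DDR1i replicate 3 or 4 or collagen replicate 2 or 4 (adjusted p = 0.0629 to 0.116) and *ITGA6* without any library but DDR1i replicate 1 and RUNXi replicate 4 (0.0543 to 0.153). With the length trend removed both DDR1i calls were lost (0.37 and 0.22, adjusted p = 0.188 and 0.317). With collagen replicate 3 included none of these 4 integrin calls remained (adjusted p = 0.0775 to 0.457).

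*PERP*, a desmosome protein gene, fell with DDR1i (604 ± 123 to 416 ± 18.2 CPM, −0.54 ± 0.12, adjusted p = 0.0196), as did *TRIM29* (443 ± 32.7 to 327 ± 21.5 CPM, −0.44 ± 0.10, adjusted p = 0.0248). In the control group *PERP* had 491 ± 22.9 CPM and *TRIM29* 459 ± 49.6 CPM. The adjusted p of *PERP* over all alternatives, among them DDR1i against control, reached 0.998. Neither call remained with collagen replicate 3 included (adjusted p = 0.414 and 0.197), and each was lost without collagen replicate 4 or DDR1i replicates 3 or 4 (adjusted p = 0.0502 to 0.103) and *TRIM29* also without DDR1i replicate 2. *IGFBP3*, which binds insulin-like growth factors, fell from 8.12 ± 2.37 CPM with collagen to 2.25 ± 1.00 with RUNXi (−1.87 ± 0.43, adjusted p = 0.0187) and was 7.85 ± 4.38 with DDR1i (DDR1i against RUNXi 1.82 ± 0.41, adjusted p = 0.0290). The RUNXi call held without each library and with collagen replicate 3 included, whereas that between inhibitors was lost without DDR1i replicates 1, 2 or 3 or RUNXi replicates 1, 2 or 4 (0.0559 to 0.298, highest without DDR1i replicate 3).

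**Figure D4:**
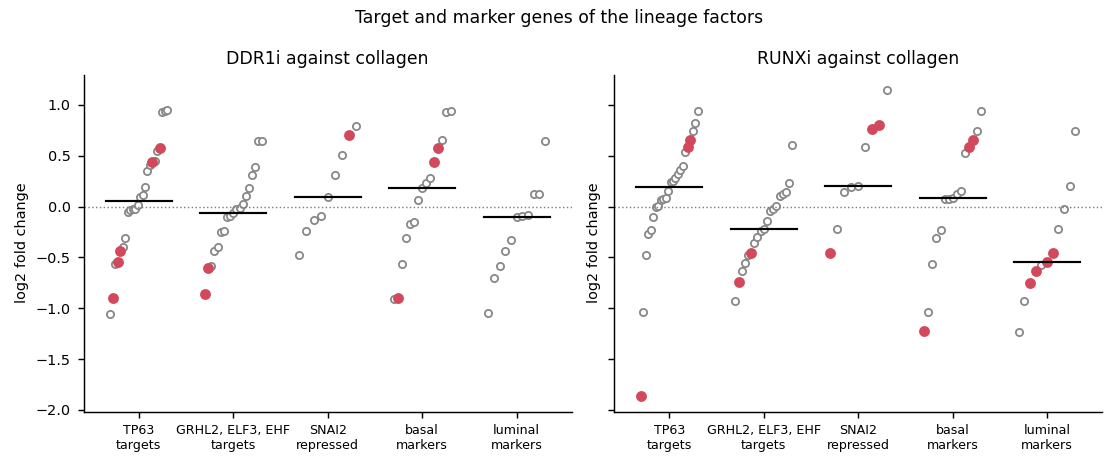
Log2 fold change of each tested gene in 5 lists for DDR1i (left) and RUNXi (right) against collagen, ordered by value within a list, with red points for genes at an adjusted p under 0.05, open points for the others and black lines for list medians. Targets of TP63 have red points on both sides of 0, and luminal markers with RUNXi have 4 red points, all below 0.

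Epithelial genes that GRHL2, ELF3 and EHF are known to regulate had few calls, all in the lower direction. Of 20 such genes 19 were tested, with medians of −0.06 for DDR1i and −0.22 for RUNXi, and 2 fell with each (beside 0.775% and 1.46% of all genes) and 0 rose. *CLDN7*, a tight junction claudin, fell with DDR1i (35.4 ± 2.66 to 19.6 ± 5.50 CPM, −0.86 ± 0.20, adjusted p = 0.0249) and RUNXi (21.3 ± 3.82 CPM, −0.74 ± 0.20, adjusted p = 0.0407), and was 33.2 ± 4.48 CPM in the control group and 20.3 CPM in collagen replicate 3. Neither call remained with that library included (adjusted p = 0.436 and 0.289), and each was lost without collagen replicate 2 or 4, the first also without DDR1i replicate 2 or 3 and the second without RUNXi replicates 1, 2 or 3 (adjusted p = 0.0587 to 0.114). With the length trend removed they were also lost (0.0624 and 0.159). *MAL2*, a gene of apical transport, fell with DDR1i (331 ± 25.8 to 218 ± 27.2 CPM, −0.61 ± 0.12, adjusted p = 0.0104; 0.0570 without DDR1i replicate 3, and 0.412 with collagen replicate 3 included). *KRT18*, a simple epithelial keratin, fell with RUNXi (495 ± 73.3 to 361 ± 24.1 CPM, −0.46 ± 0.13, adjusted p = 0.0419), but the call was lost without collagen replicate 2 or 4, DDR1i replicate 4 or any RUNXi library (0.0517 to 0.207), with collagen replicate 3 included (0.322) and with the length trend removed (−0.27, adjusted p = 0.218). In the control group *MAL2* had 292 ± 39.7 CPM and *KRT18* 409 ± 26.0 CPM, both below their means with collagen.

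Genes that SNAI2 is known to repress had calls in both directions. Of 10, 9 were tested, with medians of 0.10 for DDR1i and 0.20 for RUNXi. With DDR1i 1 rose and 0 fell (beside 1.69% and 0.775% of all genes), with RUNXi 2 rose and 1 fell (beside 2.59% and 1.46%), and between inhibitors 1 was lower with DDR1i (beside 0.221%). *DSG2*, a desmosomal cadherin, rose with DDR1i (182 ± 59.7 to 297 ± 40.1 CPM, 0.70 ± 0.17, adjusted p = 0.0340; lost without collagen replicate 4 or DDR1i replicates 2, 3 or 4, 0.0730 to 0.123). With RUNXi *DSP*, which encodes desmoplakin, rose (431 ± 137 to 757 ± 69.9 CPM, 0.80 ± 0.19, adjusted p = 0.0244; 0.0682 without RUNXi replicate 3). *CLDN1*, a claudin, rose with RUNXi (29.7 ± 2.22 to 50.7 ± 7.07 CPM, 0.77 ± 0.22, adjusted p = 0.0472; lost without any collagen or RUNXi library or DDR1i replicate 2, 0.0550 to 0.140), and *KRT18* fell, as above. Between inhibitors *CLDN1* was lower with DDR1i (21.4 ± 9.04 CPM, −1.25 ± 0.20, adjusted p = 0.00148), a call that held without each library and with collagen replicate 3 included (adjusted p = 0.00289). Control libraries had 274 ± 31.5 CPM of *DSG2* and 725 ± 133 of *DSP*, and with collagen replicate 3 included *DSG2*, *DSP* and *CLDN1* against collagen were not called (0.500, 0.303 and 0.0775), nor with the length trend removed (0.0693, 0.0698 and 0.104).

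Of 11 luminal identity markers tested with RUNXi 4 fell (beside 1.46% of all genes that fell) and 0 rose, with a median of −0.55, and with DDR1i 0 were called. The 4 were *KRT18*, *KRT7* (2712 ± 474 to 1862 ± 155 CPM, −0.55 ± 0.12, adjusted p = 0.0165), *CD24* (52.6 ± 9.89 to 31.6 ± 7.17 CPM, −0.75 ± 0.17, adjusted p = 0.0180) and *ALDH1A3*, an aldehyde dehydrogenase of luminal progenitors (28.6 ± 3.75 to 18.4 ± 2.90 CPM, −0.64 ± 0.18, adjusted p = 0.0407). In the control group *KRT7* had 2390 ± 421, *CD24* 42.8 ± 9.20 and *ALDH1A3* 35.1 ± 12.5 CPM. Of the 7 others, which did not pass, *MUC1* (0.74) and *AZGP1* (0.21) had log2 fold changes above 0, and that of *KRT8* was −0.02. The summed luminal markers, of which *KRT7* made up most, were 2458 to 2824 CPM with RUNXi, 3279 to 4424 with collagen and 2765 to 3842 in the control group, so that RUNXi overlapped with the control and not with collagen. The call of *KRT7* was lost without collagen replicate 4 (adjusted p = 0.0760), that of *CD24* without collagen replicate 4 or RUNXi replicate 4 (0.114 and 0.0553) and that of *ALDH1A3* without any collagen library or RUNXi replicates 1, 2 or 3 (0.0588 to 0.0972). With collagen replicate 3 included *KRT7* and *CD24* remained (0.0489 and 0.0376) and *ALDH1A3* did not (0.0501). With the length trend removed *KRT7* was lost (−0.37, adjusted p = 0.0549), while *CD24* and *ALDH1A3* remained (0.0187 and 0.0366).

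*CD24* (0.87 ± 0.16, adjusted p = 0.00349) and *ALDH1A3* (0.76 ± 0.16, adjusted p = 0.0227) were higher with DDR1i than with RUNXi. The first held without each library and the second was lost without any DDR1i library or RUNXi replicates 1, 2 or 3 (0.0538 to 0.0986). Among 15 basal markers tested, *TAGLN*, which encodes the actin-binding protein transgelin, fell with RUNXi (52.0 ± 12.8 to 22.4 ± 4.78 CPM, −1.22 ± 0.21, adjusted p = 0.00226) and was higher with DDR1i than RUNXi (1.07 ± 0.20, adjusted p = 0.00428). Both calls held without each library and with collagen replicate 3 included. In the control group *TAGLN* had 35.9 ± 6.26 CPM, between the means with collagen and with RUNXi. The adjusted p of its RUNXi call over all alternatives, among them RUNXi against control, reached 0.231. The other basal markers called were *KRT14*, *ITGA6* and *ITGB4*, described with the TP63 targets. For collagen against control 0 genes of any list were called.

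The genes most like the 3 factors with the smallest p, by Pearson correlation of log2 CPM over all 16 libraries among 13517 other genes, were as follows. For *SNAI2* they were *ARHGDIB* (r = 0.83), *ACAT2* (0.82) and *FAM83A-AS1* (0.80). For *KLF4* they were *CHP1* (0.83), *CHMP1B* (0.81) and *RABL2A* (0.80), and for *SOX9* *VPS52* (0.86), *ITPRIP* (0.83) and *SLC16A5* (0.82). These are the highest of many values over libraries that share groups and depth, and are given as a description.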

How the data were processed

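RNA-seq libraries of MCF10A cells (16, in 4 groups taken from the deposited labels) were sequenced by the authors, who aligned reads to hg19 with STAR. The authors deposited raw counts per gene, with no normalization. The counting tool, annotation and strand setting are not given in the sources used here. All columns were assigned to a sample.

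Tests used edgeR 4.0.16 under R 4.3.3 (scaling by TMM, filterByExpr, robust quasi-likelihood fit, Benjamini-Hochberg over all genes tested, adjusted p under 0.05). The inhibitor fit used 11 libraries (collagen replicates 1, 2 and 4 and all inhibitor libraries) and the collagen fit 7. Collagen replicate 3 was left out as in the study. CPM were TMM-normalized, and log2 CPM used a prior count of 2. Lengths and positions came from GENCODE lifted to GRCh37, matched to 22606 names by current and 1329 by older symbols. Limits for a count of 0 used 3 counts and cover counting error only. The lowest chi-square per degree of freedom between replicates was 18.7, and none was counted as a duplicate. The test was checked on simulated data.

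Members and gene lists were chosen with earlier results of these data known. The genes named are the factors, up to 3 called genes per list, direction and comparison by smallest p, and 3 similar genes for each of the 3 factors with the smallest p. Alternatives were DESeq2 1.42.0, its size factors, 2 other filters, inclusion of collagen replicate 3, all groups in the fit, a replicate block and no robust fitting. Further alternatives were removal of a length trend (spline with 4 degrees of freedom), leaving out each library and the control as reference. With the control as reference, each inhibitor group was set against control in place of collagen, which is a different comparison. A fit without control replicates 2 and 3 was added after seeing the data. Figures used Python 3.11.15, pandas 2.3.3 and matplotlib 3.10.9.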

Additional observations from a re-analysis of the deposited data

Results flagged for a closer look

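Of 40 groups of 4 values checked, 2 had a sample far from the others, where chance gives about 1 in 20. For *EHF*, control replicate 1 (18.2 CPM) stood apart from the other control libraries (2.48 to 3.56 CPM), its gap being 0.931 of the range of the group. For total counts, collagen replicate 1 (17570707) stood below the other collagen libraries (26642600 to 27695778), with a gap of 0.896 of the range.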

How the results depend on the processing

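The number of lineage factors called was 0 under every alternative except for DDR1i against collagen, where it was 2 without a filter on low counts (*EHF* and *KLF4*), and 0 to 1 over the fits that left out a library (*SOX9* without collagen replicate 1, *KLF4* without collagen replicate 2). Group levels moved by at most 1 SD in all 80 values checked, of which those of *GRHL2* are 0 under any scaling. Some fold changes changed sign, that of *XBP1* with RUNXi from a called −0.54 and those of the factors from values that were not called. For collagen against control, the log2 fold change of *EHF* was −0.011 and of *TP63* −0.035 with collagen replicate 3 included, *SOX9* −0.0079 and *TP63* −0.0033 with all groups in the fit, *SNAI2* −0.072 with the length trend removed, and *ELF3* 0.30, *EHF* −0.58, *SOX9* −0.37 and *TP63* −0.22 without control replicates 2 and 3, with 0 factors called. For the inhibitors, *KLF4* with RUNXi was −0.0077 without a filter, *TP63* with DDR1i 0.015 with collagen replicate 3 included, and with the control as reference *GATA3* and *TFAP2A* with DDR1i were −0.096 and −0.084, and *TFAP2A* and *XBP1* with RUNXi −0.13 and 0.070. Leaving out each library gave, for collagen against control, *EHF* −0.70 to 1.35, *SOX9* −0.33 to 0.31, *TP63* −0.18 to 0.15, *ELF3* −1.05 to 0.83, *KLF4* −0.14 to 0.42 and *KLF5* −0.34 to 0.052. It gave, with DDR1i, *ELF3* −0.93 to 0.32 and *TP63* −0.16 to 0.16, with RUNXi, *KLF5* −0.26 to 0.12, *TP63* −0.26 to 0.057 and *KLF4* −0.24 to 0.32, and between inhibitors *EHF* −0.91 to 0.17 and *TFAP2A* −0.012 to 0.090. The cause was not tested.

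Groups shared replicate numbers, and 11 of 15 libraries correlated best with their own number. The main tests had no replicate block, so that any shared effect of replicate stayed in their spread. Of 21 pairs with the same number 7 had deviations correlated over 0.1. The highest value between different numbers was 0.19 (control replicate 1 and DDR1i replicate 2). Of the 7, 6 were all the pairs among the replicate 4 libraries (0.16 to 0.28). With a replicate block 0 factors were called in each comparison. For DDR1i, RUNXi and between them 537, 759 and 154 genes were called, beside 334, 549 and 77 without the block. The log2 fold change for collagen against control was then 0.93 for *ELF3*, −0.059 for *SOX9* and −0.093 for *TP63*.

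Over all genes, counts called for collagen against control were 414 by DESeq2, 284 without a filter and 313 with all groups in the fit. For DDR1i, RUNXi and between inhibitors they were 857, 1160 and 134 by DESeq2 and 755, 1046 and 163 without a filter, and 17 and 35 for the inhibitors with the control as reference. Without 1 library they were 60 (without DDR1i replicate 3) to 662 (without DDR1i replicate 1), 123 (without collagen replicate 4) to 715 (without collagen replicate 1) and 53 to 109. Without collagen replicate 4 there were 87 calls for DDR1i. This library had the lowest TMM factor (0.901). Its chi-square per degree of freedom was 60.6 and 58.7 against collagen replicates 1 and 2, beside 18.7 between those 2 and up to 64.9 between control libraries. Of the 31 calls of listed genes, 11 remained with collagen replicate 3 included, 16 with the length trend removed and 9 without each library. Counts of *EHF* and *ELF3* were low. *EHF* had a count of 0 in DDR1i replicate 3 (total 22432500) and of 31 in control replicate 2 (total 12184619), and an effect of depth was not tested.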

Other observations

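Among the factors with counts, log2 CPM over the 16 libraries was most alike for *KLF4* and *EHF* (Pearson r = 0.66), *TP63* and *KLF5* (0.65) and *KLF5* and *EHF* (0.61), and most opposed for *SNAI2* and *KLF4* (−0.64). These are the extremes of 36 pairs, over libraries that share groups and depth, and are given as a description with no test.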
